A study of Danio rerio with 8 samples.

Results

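The genes of late G2 and mitosis were followed in sorted *sox10*+ cells of zebrafish embryos. A list of 38 cyclins, mitotic kinases, checkpoint proteins, kinetochore and spindle proteins, cytokinesis factors and chromosome proteins was matched by gene symbol to the deposited tables of RNA levels. Of the 38 genes, 37 were found, each as 1 row, among 25926 genes in the table of 2 dpf and 32057 in the table of 2.5 dpf. *incenp* was not analysed here. The rule uses no measured value, but the members were chosen with earlier results of these data known. Each gene was set beside *cdkn1a*, the gene of a cyclin-dependent kinase inhibitor that holds cells in arrest.

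SMART-seq, which copies messenger RNA from its poly(A) tail into cDNA and amplifies it, gave 8 libraries, 2 in each of 4 groups. Control and mutant embryos carried *Tg(sox10:kikGR)*, a transgene whose *sox10* promoter drives a fluorescent protein in neural crest cells (NCCs) and also in a few other cell types, and were taken at 2 dpf and at 2.5 dpf with no treatment. The mutants were *slc30a1a*-/-*slc30a1b*-/- embryos that lack both paralogs of a zinc exporter. The study bred such mutants from crosses of *slc30a1a*+/-*slc30a1b*-/- fish and matched their small head and eyes to genotyping. The paper does not say how the embryos of these libraries were picked. The labels call the controls only control. The study's supplement speaks of siblings of the mutants, and siblings from the cross just named would carry *slc30a1b*-/- too. Embryos were digested, dead cells were removed, and fluorescent cells were sorted. The labels do not state that 2 libraries of a group came from separate clutches, so p-values measure the spread between these libraries, which may be technical. Values are FPKM, that is, fragments scaled to the length of the transcript and to the fragments mapped in the library. The tables hold no read counts and the depth behind each value is unknown.

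A cell enters mitosis when Cdk1, bound to a cyclin of the A or B type, phosphorylates its targets. Polo-like and Aurora kinases build the spindle, the checkpoint holds anaphase until every kinetochore is attached, and the anaphase-promoting complex with Cdc20 then releases separase and destroys the cyclins. Most of these genes are transcribed in a wave in G2 and are silent in cells that have left the cycle, so in a bulk sample their RNA follows the share of dividing cells. The inhibitor p21, the product of *cdkn1a*, is a target of p53 and blocks cyclin-dependent kinases. Arrest through p21 is known in mammalian cells to lower the transcription of many mitotic genes through the DREAM complex.

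All libraries held the mitosis genes. Mean levels over the 8 libraries ran from 0.785 FPKM for *bub1bb* to 170 FPKM for *mad2l1*, with a median of 7.70 FPKM. At least 20 FPKM was reached by 12 genes, and 11 had under 5 FPKM. Levels varied little between libraries. The ratio of the highest to the lowest library was 1.21 for *plk1*, the steadiest gene, with a median of 1.56 and a maximum of 10.5 for *cenpf*. On the log2(FPKM + 1) scale the range over 8 libraries had a median of 0.52 for the mitosis genes and 0.97 for 16700 genes of both tables, and it was 4.31 for *cdkn1a*. A row of the plot of levels by library is a gene, and nearly all rows of mitosis genes are short while that of *cdkn1a* is long.

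**Figure D1:**
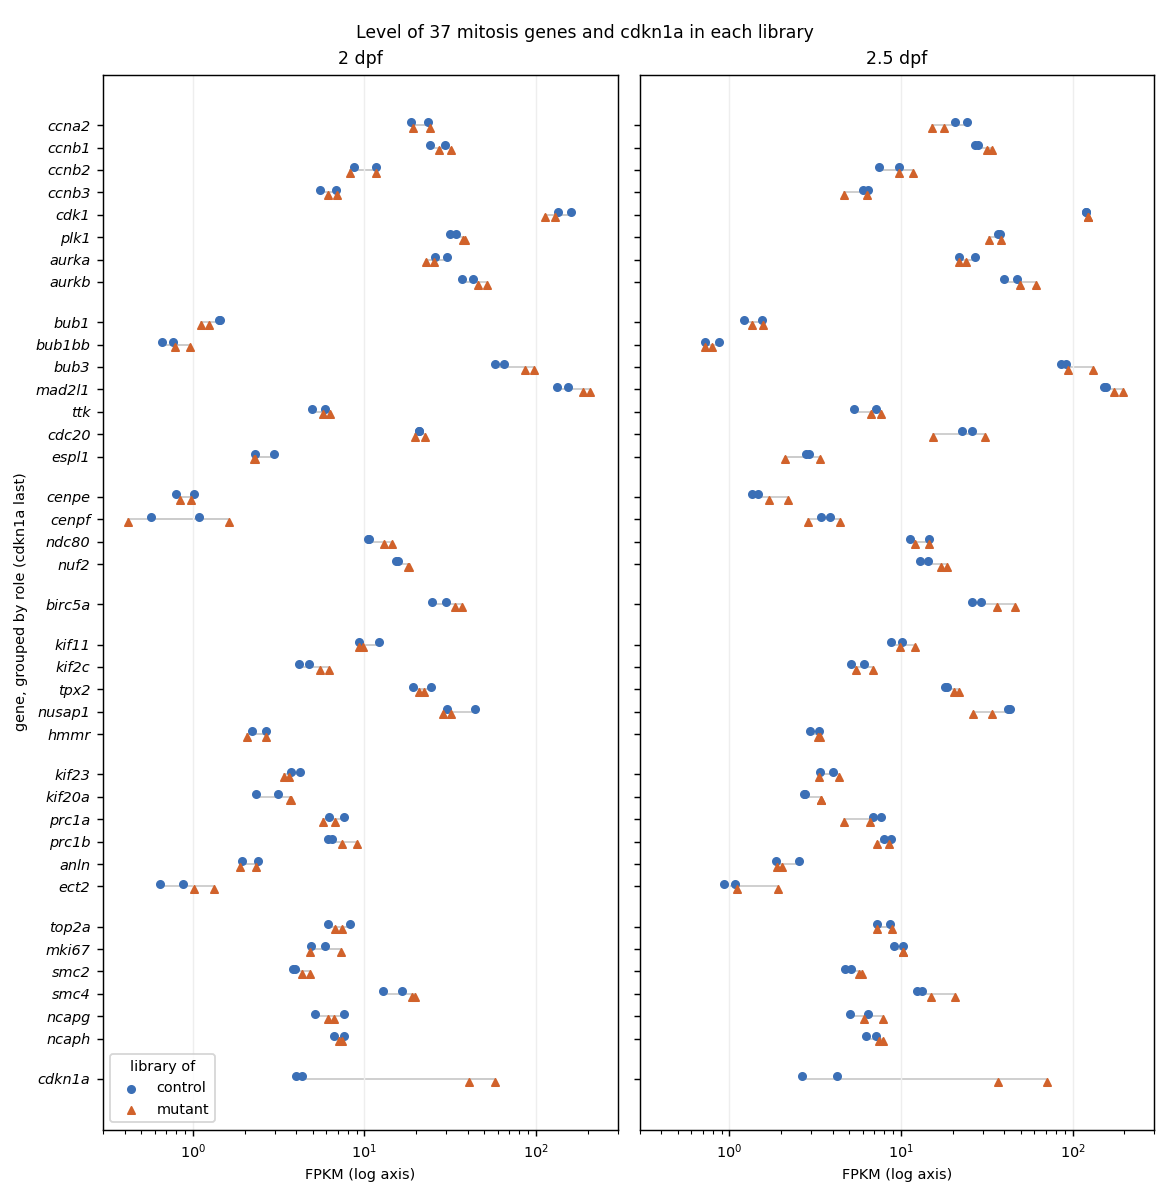
Level in FPKM (log axis) of 37 mitosis genes and of *cdkn1a*, in each of 2 control libraries (circles) and 2 mutant libraries (triangles) at 2 dpf (left) and 2.5 dpf (right). A grey line joins the lowest and highest library of a stage. Control and mutant libraries of the mitosis genes lie close together, whereas *cdkn1a* is between 2.65 and 4.34 FPKM in controls and between 36.9 and 71.3 FPKM in mutants.

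*cdkn1a* rose in mutants at 2 dpf. Its level at 2 dpf was 4.34 and 3.97 FPKM in controls and 57.9 and 40.6 FPKM in mutants. The mean was 11.9 times that of controls, and no library overlapped. On the log2(FPKM + 1) scale, used for all fold changes here, the change was 3.26 (SE 0.22, 95% interval 2.74 to 3.79, adjusted p = 0.00267 by limma over all genes tested, n = 2 libraries a group). Without the first control library the change was 3.32, and without the second it was 3.21. These fits leave 1 control library and cannot decide the call. At 2.5 dpf the levels of *cdkn1a* were 2.65 and 4.24 FPKM in controls and 36.9 and 71.3 FPKM in mutants. The groups were again apart, with a change of 3.58 (SE 0.36, 95% interval 2.67 to 4.49), but the adjusted p by limma was 0.0687, and 0 of 17379 genes passed at this stage (2128 had an unadjusted p under 0.05). With all 8 libraries in 1 fit *cdkn1a* passed at 2.5 dpf, at an adjusted p of 0.00512 by limma. The change at 2.5 dpf less that at 2 dpf was 0.32 (95% interval -0.77 to 1.41, adjusted p = 0.912 by limma).

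None of the 37 mitosis genes was called at 2 dpf. All passed the filter at a mean of 0.5 FPKM, and 0 were higher and 0 lower at an adjusted p under 0.05 by limma, where the same test called 3.52% of 15453 genes, 2.52% higher and 0.997% lower. At an unadjusted p under 0.05, 2 were higher and 0 lower, against 19.3% and 5.37% of all genes. Fold changes ran from -0.27 to 0.57 on the log2 scale. A positive change was found for 24 of the 37 genes (71.9% of all genes). Their median was 0.09, and that of all genes tested was 0.18, so that the mitosis genes lay -0.09 from the bulk of genes. The sign of this median depends on the scaling, since median-ratio rescaling put it at -0.12 and quantile normalization at -0.10. It was 0.036 without the first control library and 0.16 without the second. Under both scalings 23 of the 37 kept their sign and 14 did not. The counts at an unadjusted p under 0.05 also depend on the scaling. After median-ratio rescaling 2 members had such a p, and 2 were lower, where 2934 of 15390 genes had such a p in either direction. Quantile normalization gave 4 members, of which 2 were lower, where 3057 of 15453 genes had such a p. Median-ratio rescaling lowered the change of 37 of 37 genes at 2 dpf, by 0.12 to 0.26 on the log2 scale. The bulk samples cannot tell fewer cells of a type from less RNA per cell, here and in all results that follow.

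The intervals were narrow beside the change of *cdkn1a*. For 37 of 37 genes the 95% interval of the change at 2 dpf lay above -1, a level at which FPKM + 1 would be halved, and below 1, against 93.2% of all genes above -1 and 77.0% between both limits. For 4 of the 37, *bub1bb*, *ect2*, *cenpf* and *cenpe*, the first limit says nothing. Their control means at 2 dpf were under 1 FPKM, and a full loss would be a change of only -0.78 to -0.93 on this scale. This leaves 33 for which a change of -1 could be reached. The lowest bound was -0.80, for *nusap1*, and the highest 0.98, for *bub3*. With a pseudocount of 0.1 the lowest bound at 2 dpf was -1.41, for *cenpf*, a gene near 1 FPKM, and with median-ratio rescaling it was -1.05, for *nusap1*. Without the second control library it was -1.26, for *cenpf*. Mutant libraries lay wholly above controls for 14 of the 37 genes and wholly below for 5, against 44.8% and 12.1% of all genes.

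At 2.5 dpf, too, 0 of 37 were called in either direction (0% of all genes). At an unadjusted p under 0.05, 1 gene, *birc5a*, was higher and 1, *nusap1*, was lower, against 7.18% and 5.06% of all genes (12.2% in all). Fold changes ran from -0.49 to 0.55 with a median of 0.07, beside 0.02 for all genes tested, and 25 were positive (51.9% of all genes). This median was 0.047 without the first control library, 0.15 without the second and 0.18 without the first mutant library. It kept its sign under both other scalings, as did 35 of the 37 genes singly. The interval lay above -1 for 37 of 37 genes (86.9% of all genes) and within -1 and 1 for 36 (74.9%), the exception being the upper bound of *birc5a* at 1.04. Here a full loss of *bub1bb* (-0.84) or *ect2* (-0.9991) could not reach -1, which leaves 35 genes. The lowest bound was that of *cdc20*, -0.99, and it passed -1 with a pseudocount of 0.1 (-1.05), with no filter (-1.08) and with median-ratio rescaling (-1.03), and reached -1.51 without the second control library and -1.33 without the first. Mutant libraries lay wholly above controls for 15 genes and wholly below for 3, where all genes gave 24.3% and 19.2%. A fit with a block on the replicate number, which takes same-numbered libraries as pairs, called 738 of 17379 genes and 0 of the 37.

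**Figure D2:**
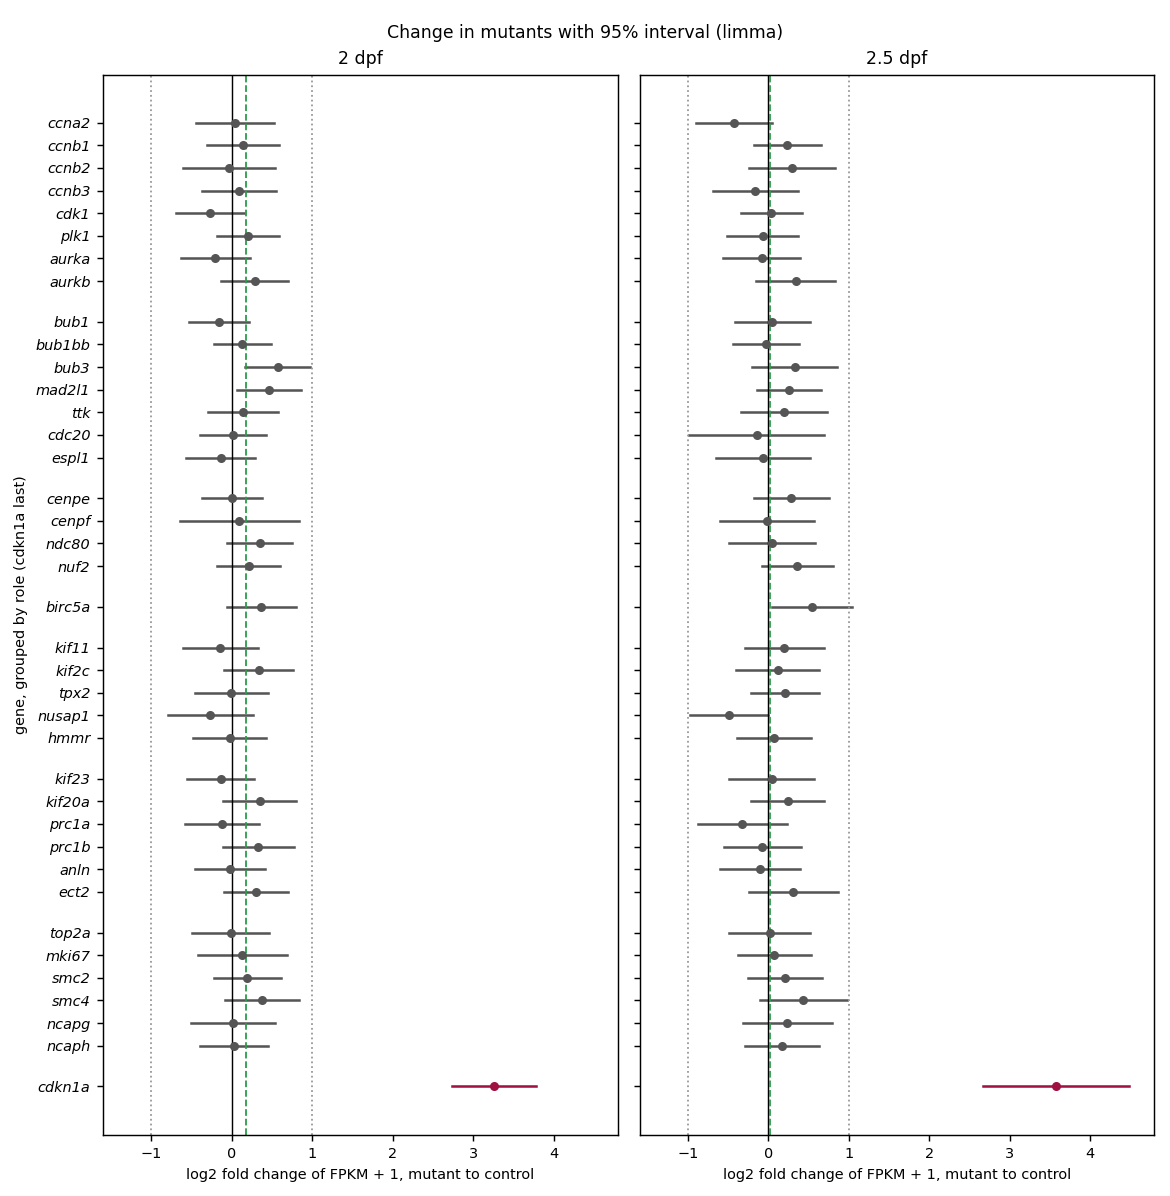
Change from control to mutant in log2(FPKM + 1) with its 95% interval by limma (points and bars) for the 37 mitosis genes and for *cdkn1a* (last row), at 2 dpf (left) and 2.5 dpf (right). The dashed line is the median of all genes tested, 0.18 at 2 dpf and 0.02 at 2.5 dpf, and dotted lines stand at -1 and 1. Intervals of the mitosis genes stay within the dotted lines apart from *birc5a* at 2.5 dpf, and that of *cdkn1a* starts at 2.74 and 2.67.

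Cyclins and mitotic kinases form the engine of mitotic entry. By the adjusted test 0 of 8 were called at either stage, where 3.52% of all genes were called at 2 dpf and 0% at 2.5 dpf. In this group and those below, which are small, 0 calls do not show that levels were unchanged. Beside 0.18 and 0.02 for all genes, the median of the 8 genes as deposited was 0.07 at 2 dpf and -0.02 at 2.5 dpf. *cdk1* (ENSDARG00000087554), the catalytic subunit, had the largest negative change of the group at 2 dpf. Its levels were 135 and 159 FPKM in controls and 114 and 129 FPKM in mutants, and both mutant libraries lay below both controls. The change was -0.27 (SE 0.17, 95% interval -0.69 to 0.15, adjusted p = 0.376 by limma), and -0.53 after median-ratio rescaling. At 2.5 dpf the 4 libraries were nearly level, at 120.03 and 119.77 FPKM in controls and 122.52 and 123.71 FPKM in mutants, a change of 0.04 (95% interval -0.34 to 0.42). *cdk1* was 31.0 and 40.1 times as high as *cdkn1a* in the control libraries of 2 dpf and 1.96 and 3.18 times as high in the mutants. At 2.5 dpf these ratios were 45.3 and 28.2 in controls and 3.32 and 1.74 in mutants. Both levels are per kilobase.

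*ccna2* (ENSDARG00000011094), cyclin A2, which acts in S phase and at mitotic entry, overlapped between genotypes at 2 dpf, with 23.3 and 18.8 FPKM in controls and 19.3 and 24.2 FPKM in mutants. At 2.5 dpf it was 24.2 and 20.8 FPKM in controls and 17.8 and 15.3 FPKM in mutants. Both mutant libraries were then the lower ones, with a change of -0.42 (SE 0.19, 95% interval -0.89 to 0.05, adjusted p = 0.457 by limma). The 3 B-type cyclins, partners of Cdk1 in mitosis, gave changes at 2.5 dpf of 0.23 for *ccnb1*, 0.30 for *ccnb2* and -0.16 for *ccnb3*. At 2 dpf their changes were 0.14, -0.04 and 0.09, and -0.12, -0.28 and -0.14 after median-ratio rescaling. The change of *ccna2* at 2 dpf was 0.04, or -0.21 after that rescaling.

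*aurkb* (ENSDARG00000037640), the Aurora kinase of the chromosomal passenger complex, had the largest positive change of the group at both stages. It was at 37.1 and 42.7 FPKM in controls and 45.7 and 51.9 FPKM in mutants of 2 dpf. At 2.5 dpf controls had 39.8 and 47.2 FPKM and mutants 49.6 and 61.4 FPKM. Mutant libraries lay above controls at both stages, with changes of 0.28 (95% interval -0.14 to 0.70, adjusted p = 0.360) and 0.34 (-0.15 to 0.83, adjusted p = 0.567 by limma). After median-ratio rescaling the change at 2 dpf was 0.02. Its relative *aurka*, which works at the spindle poles, had changes of -0.21 (-0.46 after median-ratio rescaling) and -0.08. *plk1*, the polo-like kinase, ranged from 31.7 to 38.4 FPKM over all 8 libraries, with changes of 0.20 (-0.06 after that rescaling) and -0.07.

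The spindle checkpoint and the switch to anaphase held both genes with an unadjusted p under 0.05 at 2 dpf as deposited. By the adjusted test 0 of 7 were called at either stage (3.52% and 0% of all genes). After median-ratio rescaling the 2 mitosis genes with such an unadjusted p were lower ones, so *bub3* and *mad2l1*, with positive changes, were not among them. *bub3* (ENSDARG00000075883), a checkpoint protein that recruits Bub1 to kinetochores, was at 58.0 and 65.4 FPKM in controls and 86.8 and 97.7 FPKM in mutants at 2 dpf. The groups did not overlap, and the mutant mean was 1.49 times that of controls. The change was 0.57 (SE 0.17, 95% interval 0.17 to 0.98, unadjusted p = 0.0130, adjusted p = 0.110 by limma), and it was 0.31 after median-ratio rescaling. At 2.5 dpf *bub3* had 85.9 and 91.2 FPKM in controls and 94.2 and 131 FPKM in mutants, again apart, with a change of 0.33 (95% interval -0.20 to 0.85). *mad2l1* (ENSDARG00000004713), which forms the signal that inhibits Cdc20, had 133 and 154 FPKM in controls and 188 and 207 FPKM in mutants at 2 dpf. All mutant values exceeded the controls, by 0.46 (SE 0.17, 95% interval 0.06 to 0.86, unadjusted p = 0.0300, adjusted p = 0.162 by limma), and by 0.20 after median-ratio rescaling.

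*bub1* (ENSDARG00000077029), the checkpoint kinase, stood on the other side. It had 1.42 and 1.44 FPKM in controls and 1.24 and 1.11 FPKM in mutants at 2 dpf, both mutant libraries below, and the change was -0.16 (95% interval -0.53 to 0.21, adjusted p = 0.553 by limma), or -0.31 after median-ratio rescaling. At 2.5 dpf the groups of *bub1* overlapped. *cdc20* (ENSDARG00000100741), the activator of the anaphase-promoting complex, was the least settled member at 2.5 dpf. Controls had 25.8 and 22.8 FPKM, while the mutants had 30.8 and 15.3 FPKM and enclosed them. The change of -0.15 therefore has a wide interval, -0.99 to 0.69. *espl1*, separase, and *ttk*, the Mps1 kinase, had changes at 2 dpf of -0.14 and 0.14, which median-ratio rescaling moved to -0.33 and -0.09. *bub1bb*, a BubR1 gene, was under 1 FPKM in all libraries, with changes of 0.13 (-0.03 after quantile normalization) and -0.03. Its paralog *bub1ba*, not among the members, had higher levels. They were 4.98 and 4.12 FPKM in controls and 5.73 and 5.80 FPKM in mutants at 2 dpf. At 2.5 dpf they were 4.99 and 4.95 FPKM in controls and 6.14 and 5.69 FPKM in mutants.

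**Figure D3:**
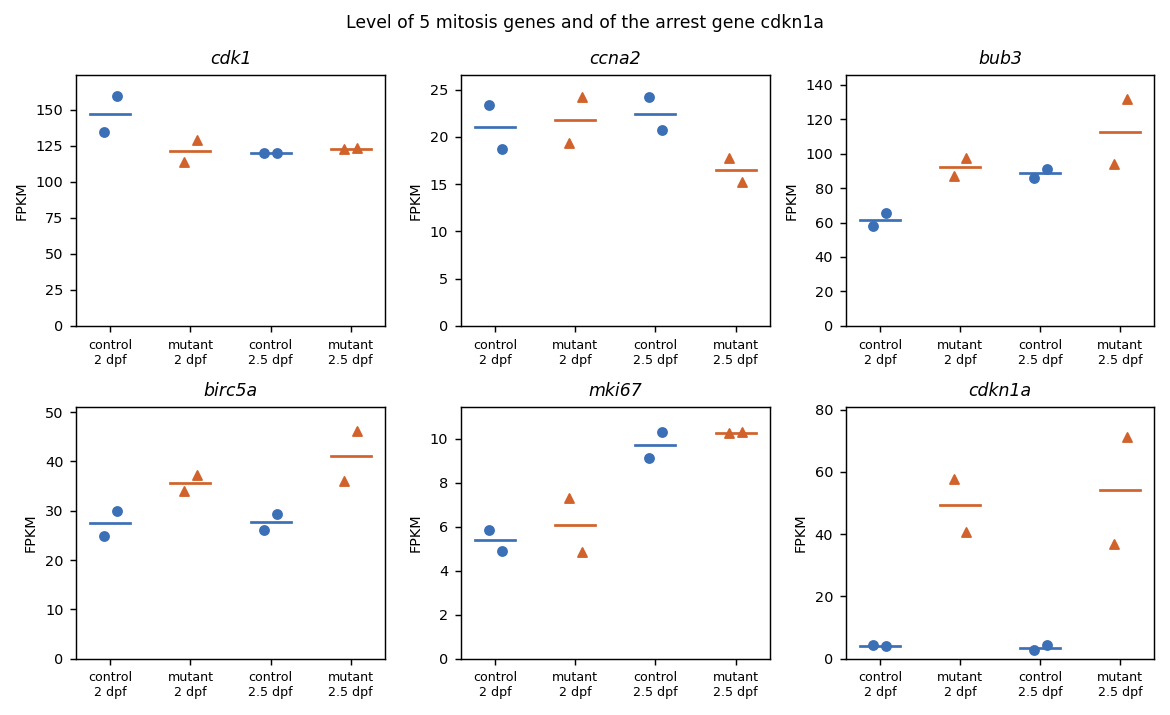
FPKM of *cdk1*, *ccna2*, *bub3*, *birc5a*, *mki67* and *cdkn1a* in each library (circles, control; triangles, mutant) with the mean of 2 libraries (line), by genotype and stage, each axis starting at 0. *bub3* and *birc5a* are higher in both mutant libraries at each stage, *mki67* is higher at 2.5 than at 2 dpf in both genotypes, and *cdkn1a* is high in the mutants alone, from 36.9 FPKM up.

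Kinetochore proteins link chromosomes to microtubules, and 0 of 4 were called between genotypes at either stage (3.52% and 0% of all genes). *ndc80* (ENSDARG00000071694), the main microtubule receptor, had 10.7 and 10.5 FPKM in controls and 13.0 and 14.4 FPKM in mutants at 2 dpf. The mutants lay above, with a change of 0.35 (95% interval -0.06 to 0.75, adjusted p = 0.261 by limma) that was 0.10 after median-ratio rescaling, while at 2.5 dpf the groups overlapped, with a change of 0.05. Its partner *nuf2* (ENSDARG00000034624) had 14.5 and 12.8 FPKM in controls and 17.2 and 18.4 FPKM in mutants at 2.5 dpf, both mutants above. That change was 0.36 (95% interval -0.08 to 0.81, adjusted p = 0.502 by limma). *cenpf* (ENSDARG00000055133), a large protein of the outer kinetochore, overlapped between genotypes at both stages, with 3.88 and 3.42 FPKM in controls and 4.41 and 2.88 FPKM in mutants at 2.5 dpf and a change of -0.02 (95% interval -0.61 to 0.57). *cenpe*, a kinetochore kinesin, overlapped at 2 dpf and lay above controls in both mutant libraries at 2.5 dpf, with changes of 0.0014 (-0.12 after median-ratio rescaling) and 0.29.

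*birc5a* (ENSDARG00000075621), survivin, is a subunit of the chromosomal passenger complex that brings Aurora B to the centromere, and it also has a known role in cell survival. It had 24.9 and 30.0 FPKM in controls and 33.9 and 37.2 FPKM in mutants at 2 dpf. At 2.5 dpf controls had 26.0 and 29.4 FPKM and mutants 36.1 and 46.1 FPKM. Mutants lay above at both stages, by 0.37 (95% interval -0.06 to 0.80, adjusted p = 0.263) and by 0.55 (0.05 to 1.04, unadjusted p = 0.0366, adjusted p = 0.369 by limma). After median-ratio rescaling these were 0.11 and 0.51. Its mean at 2.5 dpf was 1.48 times that of controls.

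Spindle motors and assembly factors gave a median of -0.03 at 2 dpf and 0.12 at 2.5 dpf over 5 genes. All genes tested gave medians of 0.18 and 0.02. Of the 5 genes, 0 were called at either stage (3.52% and 0% of all genes). *nusap1* (ENSDARG00000002403), which bundles spindle microtubules, had 44.2 and 30.4 FPKM in controls and 32.0 and 28.7 FPKM in mutants at 2 dpf, with overlap through the second control. The change was -0.27, or -0.53 after median-ratio rescaling. At 2.5 dpf *nusap1* had 41.9 and 43.0 FPKM in controls and 34.0 and 26.2 FPKM in mutants, which lay wholly below. The change was then -0.49 (SE 0.19, 95% interval -0.98 to -0.0073, unadjusted p = 0.0476, adjusted p = 0.402 by limma). As deposited it was the lowest of the 37 genes at either stage, and after median-ratio rescaling it was -0.53. *kif2c* (ENSDARG00000076228), a kinesin that depolymerizes microtubules, had 4.15 and 4.75 FPKM in controls and 5.51 and 6.22 FPKM in mutants at 2 dpf, apart by 0.33 (95% interval -0.10 to 0.77), or 0.11 after median-ratio rescaling. *tpx2* (ENSDARG00000078654), the activator of Aurora A, had 18.5 and 18.0 FPKM in controls and 20.4 and 21.9 FPKM in mutants at 2.5 dpf, apart by 0.20 (-0.22 to 0.63). *kif11*, the motor that pushes the poles apart, had changes of -0.14 (-0.38 after that rescaling) and 0.20, and *hmmr*, a spindle protein, of -0.03 (-0.21) and 0.07.

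Factors of the midzone and of cytokinesis gave 0 calls of 6 at both stages (3.52% and 0% of all genes). *kif23* (ENSDARG00000014943), a kinesin of centralspindlin, had 3.72 and 4.22 FPKM in controls and 3.61 and 3.40 FPKM in mutants at 2 dpf. The mutants lay just below, with a change of -0.14 (95% interval -0.56 to 0.28), or -0.35 after median-ratio rescaling. *kif20a* (ENSDARG00000044491), a midzone kinesin, had 2.33 and 3.13 FPKM in controls and 3.75 and 3.67 FPKM in mutants, above the controls by 0.34 (-0.11 to 0.80), or by 0.14 rescaled. *ect2* (ENSDARG00000007278), the exchange factor that activates RhoA at the cleavage furrow, had 1.07 and 0.93 FPKM in controls and 1.11 and 1.91 FPKM in mutants at 2.5 dpf. The first mutant library was close to the controls and the second apart, with a change of 0.31 (-0.24 to 0.86). The paralogs *prc1a* (ENSDARG00000100918) and *prc1b*, which cross-link midzone microtubules, differed in sign, with changes of -0.12 and 0.33 at 2 dpf (-0.35 and 0.10 rescaled). *prc1a* had 6.86 and 7.62 FPKM in controls and 6.63 and 4.67 FPKM in mutants at 2.5 dpf, both below, a change of -0.32 (-0.88 to 0.23). *anln*, anillin of the cleavage furrow, overlapped at both stages, with changes of -0.03 (-0.21 rescaled) and -0.10. How reads of paralogs such as *prc1a* and *prc1b* were shared out is not given in the sources used here.

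Chromosome proteins gave 0 calls of 6 at both stages (3.52% and 0% of all genes) and a median of 0.08 and 0.19. All genes tested gave medians of 0.18 and 0.02. *smc4* (ENSDARG00000038882), a condensin ATPase, had 12.8 and 16.6 FPKM in controls and 18.9 and 19.6 FPKM in mutants at 2 dpf. At 2.5 dpf controls had 13.2 and 12.4 FPKM and mutants 15.0 and 20.7 FPKM. The mutants lay above at both stages, by 0.38 (95% interval -0.08 to 0.84, adjusted p = 0.277) and 0.43 (-0.11 to 0.97, adjusted p = 0.507 by limma), and after median-ratio rescaling by 0.13 and 0.40. *smc2*, its partner, also had its mutant libraries above controls at both stages, with changes of 0.19 and 0.20, although median-ratio rescaling turned the first to -0.02. The condensin subunits *ncapg* and *ncaph* had changes of 0.02 each at 2 dpf (-0.21 each rescaled) and of 0.24 and 0.17 at 2.5 dpf. *top2a* (ENSDARG00000024488), the topoisomerase that untangles sister chromatids, overlapped at 2 dpf, with 6.15 and 8.23 FPKM in controls and 6.72 and 7.39 FPKM in mutants and a change of -0.01 (-0.49 to 0.47), or -0.25 rescaled. *mki67*, whose product Ki-67 coats mitotic chromosomes and is a common marker of cycling cells, had 5.86 and 4.91 FPKM in controls and 7.31 and 4.84 FPKM in mutants at 2 dpf. Its groups overlapped, and the change was 0.13 (-0.42 to 0.68), or -0.09 rescaled.

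Summed over the 37 genes, the level at 2 dpf was 707 and 788 FPKM in controls and 798 and 873 FPKM in mutants. At 2.5 dpf it was 767 and 794 FPKM in controls and 839 and 893 FPKM in mutants. As deposited, the sum was higher in both mutant libraries at each stage, although 2 libraries against 2 allow no exact permutation p below 0.333. At 2 dpf *bub3* and *mad2l1* made up 84.8 of the 88.3 FPKM between the group means, and without them controls had 516 and 568 FPKM and mutants 523 and 568 FPKM. Median-ratio rescaling turned the order at 2 dpf, to 768 and 858 FPKM in controls and 729 and 784 FPKM in mutants, with overlap. At 2.5 dpf both genes made up 54.9 of 86.2 FPKM, and the mutants stayed above after rescaling, at 816 and 884 against 803 and 766 FPKM. Of the total FPKM of a library, the 37 genes made up 0.103 to 0.113% in controls and 0.117 to 0.128% in mutants at 2 dpf, and 0.118 to 0.130% and 0.131 to 0.136% at 2.5 dpf.

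No mitosis gene was called for a difference between stages in the effect of genotype, where 0 of 16703 genes were called. The count for the mitosis genes therefore sets them apart from no other gene. The differences ran from -0.47 for *ccna2* to 0.34 for *kif11*, with 0 of 37 at an unadjusted p under 0.05 (5.40% of 16703 genes) and a smallest adjusted p of 0.859 by limma.

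Between stages, 2 of 37 genes rose in controls from 2 to 2.5 dpf and 0 fell, where 21.5% of 16321 genes were called and 19.1% were called higher. Stage and table cannot be told apart. *cenpf* had 1.09 and 0.57 FPKM at 2 dpf and 3.88 and 3.42 FPKM at 2.5 dpf in controls, well apart, with a change of 1.36 (SE 0.22, adjusted p = 0.0219 by limma). *mki67* went from 5.86 and 4.91 to 9.13 and 10.3 FPKM, also apart, with a change of 0.75 (SE 0.20, adjusted p = 0.0474 by limma). Neither was called with no filter, where 0 of 24996 genes were called. They were also not called under median-ratio rescaling (changes of 0.97 and 0.19, with 993 of 16096 genes called) or quantile normalization (0.86 and 0.27, with 526 of 16321). A fit without a control library leaves 1 library in that group and cannot decide these calls. In mutants 0 of 37 were called (2.80% of 16875 genes). There *cenpf* had 1.62 and 0.42 FPKM at 2 dpf and 4.41 and 2.88 FPKM at 2.5 dpf, a change of 1.25 (SE 0.34, adjusted p = 0.0933 by limma), and *mki67* had a change of 0.69 (SE 0.22, adjusted p = 0.119 by limma).

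The median change over time of the mitosis genes lay below that of all genes under each scaling, which is a description with no test. Their median from 2 to 2.5 dpf was 0.09 in controls and 0.07 in mutants, beside 0.44 and 0.25 for all genes, and with median-ratio rescaling, which moved all genes to -0.02 and -0.03, it was -0.44 and -0.26. Relative to all genes the medians were -0.35 in controls and -0.18 in mutants as deposited, -0.41 and -0.23 after median-ratio rescaling and -0.36 and -0.17 after quantile normalization. At an unadjusted p under 0.05, 0 members were lower as deposited in either genotype, where 689 of 16321 genes were in controls and 481 of 16875 in mutants. After median-ratio rescaling 16 members were lower in controls and 8 in mutants, and after quantile normalization 12 and 4. In either direction, rescaling gave 17 members in controls and 9 in mutants, where all genes gave 4048 of 16096 and 3516 of 16767. Quantile normalization gave 13 and 5 members, where all genes gave 3493 of 16321 and 3184 of 16875. The share of all genes that were lower was not counted under these scalings, so the counts of lower members have no background there.

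Lists of related genes, written from general knowledge but with earlier results of these data known, were fitted in the same way. Of 73 other genes of G2 and mitosis that were tested at 2 dpf, 0 were called (3.52% of all genes). At an unadjusted p under 0.05, 10 were higher and 0 lower, where 19.3% and 5.37% of all genes were. Their median was 0.22 beside 0.18 for all genes. At 2.5 dpf 0 of 75 were called (0% of all genes). At an unadjusted p under 0.05, 11 were higher and 0 lower, where 7.18% and 5.06% of all genes were. The median was 0.14 beside 0.02. Among 32 genes of G1 and S phase tested at 2 dpf, 1 was called, where 3.52% of all genes were. *ccnd3* (ENSDARG00000027391), a D-type cyclin of G1, rose from 0.54 and 0.41 to 3.43 and 3.11 FPKM, a change of 1.53 (SE 0.16, adjusted p = 0.0104 by limma). At 2.5 dpf 0 of 35 genes of G1 and S phase were called (0% of all genes).

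Arrest and p53 target genes moved in both directions at 2 dpf. Of 37 tested, 9 were called higher and 2 lower, beside a background of 2.52% and 0.997%. The list was chosen with earlier results of these data known, so these counts beside the background are a description. A fit without a control library leaves 1 library in that group and cannot decide these calls. *rps27l* (ENSDARG00000100513), a ribosomal protein gene induced by p53, rose from 214 and 255 to 1956 and 1455 FPKM, a change of 2.85 (SE 0.20, adjusted p = 0.00273). *gadd45aa* (ENSDARG00000043581), a stress gene whose mammalian counterpart inhibits Cdk1, rose from 5.20 and 5.99 to 37.6 and 40.6 FPKM, a change of 2.60 (SE 0.17, adjusted p = 0.00267 by limma). The genes that fell were *pmaip1* (ENSDARG00000089307), which encodes the apoptotic protein Noxa and went from 52.5 and 61.7 to 19.3 and 22.9 FPKM (-1.39, SE 0.18, adjusted p = 0.0210), and *ccng2* (ENSDARG00000017602), a cyclin linked to arrest, from 29.8 and 23.7 to 12.8 and 12.4 FPKM (-1.02, SE 0.19, adjusted p = 0.0420 by limma). At 2.5 dpf 0 of 39 were called (0% of all genes). At an unadjusted p under 0.05, 12 were higher and 1 lower, against 7.18% and 5.06% of all genes.

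**Figure D4:**
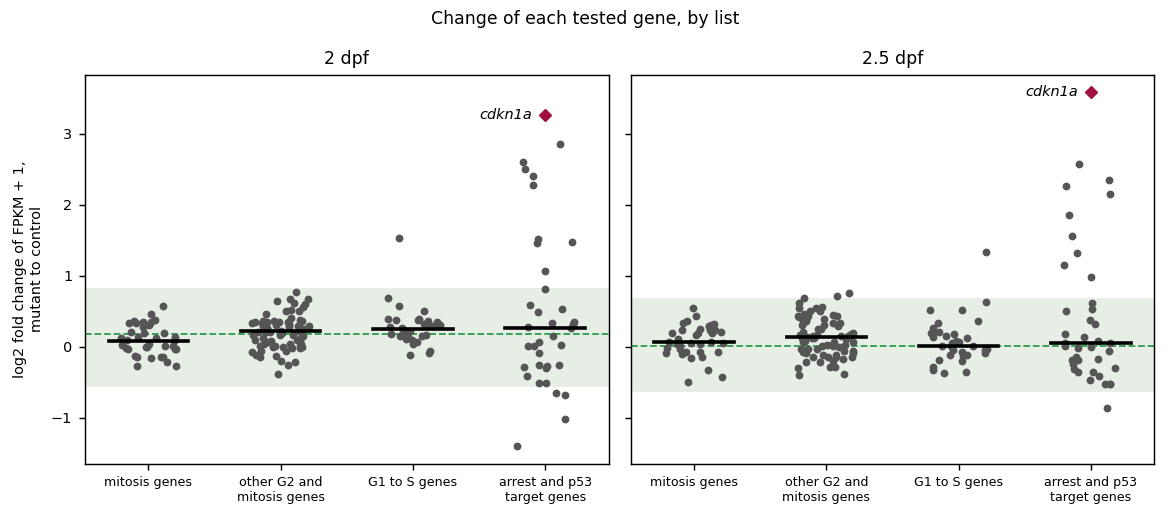
Change from control to mutant in log2(FPKM + 1) of each tested gene (dots) of 4 lists at 2 dpf (left) and 2.5 dpf (right). Black bars are list medians, the dashed line is the median of all genes tested and the shaded band their 5th to 95th percentile, from -0.55 to 0.81 at 2 dpf and -0.62 to 0.67 at 2.5 dpf. The mitosis genes all lie within the band, and *cdkn1a* (diamond) lies at 3.26 and 3.58.

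Markers of some cell types differed with genotype, and not always in the same way at both stages. *sox10* was present in all libraries, from 47.6 to 156 FPKM, while *crestin*, a marker of early NCCs, was between 0.18 and 0.51 FPKM. The 8 neural crest markers summed to 324 to 498 FPKM in controls and 551 to 601 FPKM in mutants at 2 dpf. Of 7 tested, 0 were called (3.52% of all genes) and 6 had a positive change (71.9% of all genes). Most abundant was *twist1a*, at 127 and 226 FPKM in controls and 270 and 279 FPKM in mutants. *sox10* had 53.8 and 84.9 FPKM in controls and 47.6 and 70.3 FPKM in mutants, with overlap. The 5 white blood cell markers, with *lyz* the most abundant, summed to 39532 to 40714 FPKM in controls and 15045 to 23890 FPKM in mutants at 2 dpf. Of these 5, 0 were called and 4 were lower at an unadjusted p under 0.05 (5.37% of all genes). Their sums overlapped in range at 2.5 dpf. Red blood cell markers summed to 15654 to 24376 and 6057 to 7626 FPKM at 2 dpf. Of their 5 rows, with *hbae1.1* entered more than once, 4 were called lower. Retina markers summed to 95.8 to 188 and 28.1 to 32.6 FPKM, with 3 of 8 called lower. Lens markers were called lower at 2 dpf for 3 of 3 tested, where 0.997% of all genes were called lower. Of skin, neuron and pigment cell markers 0 of 5, 0 of 5 and 0 of 6 were called at that stage. Of cartilage, glia and otic epithelium markers tested, 0 of 4, 0 of 2 and 0 of 3 were. Cartilage sums were 80.6 to 143 FPKM in controls and 76.1 to 80.1 FPKM in mutants. Glia sums, nearly all *fabp7a*, were 1405 to 2028 and 1094 to 1305 FPKM. Otic sums were 17.1 to 21.8 and 24.5 to 41.3 FPKM. At an unadjusted p under 0.05, 2 cartilage markers were lower (5.37% of all genes) and 2 otic markers higher (19.3%). Skeletal muscle sums overlapped at 2 dpf, at 230 to 321 FPKM in controls and 176 to 232 FPKM in mutants. At 2.5 dpf no marker was called (0% of all genes). Retina markers then summed to 168 to 201 FPKM in controls and 32.9 to 35.3 FPKM in mutants, with 5 of 8 lower at an unadjusted p under 0.05. Cartilage markers were at 145 to 325 and 87.1 to 107 FPKM, with 3 of 4 tested lower at that p. Skeletal muscle markers were at 53.6 to 61.9 and 91.6 to 203 FPKM, with 4 of 4 higher at that p. Glia markers were at 2275 to 2548 and 1531 to 1981 FPKM, with 1 of 4 lower at that p. Otic epithelium markers were at 105 to 117 and 64.0 to 72.8 FPKM, with 2 of 3 tested lower and 1 higher at that p. Of all genes 5.06% were lower and 7.18% higher at that p. Red blood cell sums overlapped at 2.5 dpf, at 2868 to 5580 FPKM in controls and 3062 to 9515 FPKM in mutants. The part of these cells in the levels of the mitosis genes was not tested. *slc30a1a* had 12.1 and 11.7 FPKM in controls and 5.96 and 7.06 FPKM in mutants at 2 dpf (-0.79, adjusted p = 0.0676 by limma), and *slc30a1b* was between 0 and 0.14 FPKM in all 8 libraries.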

How the data were processed

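The authors sequenced SMARTer cDNA with paired ends and deposited 1 table of FPKM values for each stage, with 2 decimals. The submitters' processing notes name HISAT, StringTie and edgeR and the build GRCz11, with versions not given in the sources used here. Every FPKM column was used. Ratios of low values between libraries showed no steps of whole reads (1.69 to 2.78% of genes in the fullest bin), so depth could not be recovered.

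Values were transformed to log2(FPKM + 1), genes whose mean over the fitted libraries was under 0.5 FPKM were left out, and mutants were compared with controls of the same stage in limma 3.58.1 (R 4.3.3), with eBayes set to follow a trend of variance with level. P-values were adjusted by Benjamini-Hochberg over all genes tested, with a threshold of 0.05, and genes past it are called. Stages were compared within a genotype, and the interaction was fitted over 8 libraries. The code was tested on simulated data. Every gene is named with its group, and levels in each library are given for the members with the largest fall and rise of each group at each stage, for called members, for *cdkn1a*, and for up to 3 called genes per direction of the other lists. *mad2l1* was added after its values were seen, as were the earlier or later levels of genes so named. The members and lists were chosen with earlier results of these data known. Alternatives were a pseudocount of 0.1, quantile normalization, median-ratio rescaling, no filter, a filter at 2 FPKM, no variance trend, all 8 libraries in 1 fit, a block on the replicate number, and each library left out in turn. For the arrest list, for summed levels and for counts of intervals and of unadjusted p-values they were chosen after seeing the data.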

Additional observations from a re-analysis of the deposited data

How the results depend on the processing

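Over all genes the difference between stages gave 0 calls where all libraries were kept, apart from 1 with a pseudocount of 0.1. The count of mitosis genes called was 0 for that difference, and 0 in each direction at 2 dpf and at 2.5 dpf, in every alternative that kept all libraries. The median at 2 dpf was -0.12 after median-ratio rescaling, -0.10 after quantile normalization, and 0.036 to 0.16 with each library left out. At 2.5 dpf it was 0.047 to 0.18 with each library left out. With a library left out the interval lay above -1 for 35 to 37 mitosis genes at 2 dpf and 32 to 36 at 2.5 dpf. The change of *cdkn1a* at 2 dpf was 3.01 to 3.51 over the alternatives. It was called in each that kept all libraries (adjusted p by limma 0.00128 to 0.0360). At 2.5 dpf its change of 3.58 passed with a filter at 2 FPKM (adjusted p = 0.0496), with all 8 libraries (0.00512) and with the replicate block (0.000336), in a range of 0.000336 to 0.427. From 2 to 2.5 dpf in controls the count of mitosis genes was 0 with no filter, where 0 of 24996 genes were called. It was 0 with median-ratio rescaling and quantile normalization and 1 with the replicate block. In mutants it was 2 with all 8 libraries (*cenpe* and *cenpf*). The summed level in mutants less controls was 88.3 FPKM at 2 dpf, against -56.8 after median-ratio rescaling and 3.48 without *bub3* and *mad2l1*, and at 2.5 dpf it was 86.2 FPKM, against 31.3 without both genes. Of the arrest genes 5 were called higher with no filter, and 0 to 6 with a library left out. Over all genes the count at 2 dpf was 544, against 47 with no filter, 236 with quantile normalization, 293 with all 8 libraries, 830 with the replicate block and 0 to 227 with a library left out, and at 2.5 dpf it was 0, against 28, 249 and 738 with the filter at 2 FPKM, all 8 libraries and the block. The deviations of same-numbered libraries correlated across genes at r = 0.144 at 2 dpf and 0.371 at 2.5 dpf, over only 2 pairs. At 2 dpf higher genes were 390 of 544 calls as deposited and 213 of 456 with median-ratio rescaling. With a library left out, the lone library is assumed to vary like the other group. Depth is unknown, so no floor could be given for genes near 1 FPKM.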

Other observations

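Other inhibitors of cyclin-dependent kinases were looked at after their values were seen. The gene labelled *cdkn2a/b* (ENSDARG00000037262), an inhibitor of Cdk4 and Cdk6, was listed at 0 in both controls of 2 dpf and at 4.86 and 3.03 FPKM in the mutants (adjusted p = 0.00710 by limma). At 2.5 dpf it was at 0 and 0.15 FPKM in controls and 3.32 and 5.11 FPKM in mutants (adjusted p = 0.0687). *cdkn1bb*, a p27 gene, had changes of -0.29 and -0.40 on the log2 scale, and *cdkn1cb*, a p57 gene, of 0.53 and 0.50, with neither called at either stage. *foxm1*, which encodes a transcription factor of the G2 and mitosis genes, had changes of -0.15 and 0.15.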
